A study of Mus musculus with 12 samples.

Results

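Pmel, Tyrp1, Dct and Slc45a2 are 4 mouse genes of pigment cells, and they were followed here in dendritic cells that had, or had not, been cultured with melanoma cells. They were taken as a named list, matched by Entrez identifier, and all 4 stood among the 11786 genes of the table. Dendritic cells were grown from mouse bone marrow with the cytokine GM-CSF and came from wild-type mice or from mice labelled ythdf1-/-. Ythdf1 encodes a protein that binds mRNA at N6-methyladenosine. Libraries were made for either genotype without tumour cells (alone) and with tumour lysate, an overnight culture with necrotic B16-OVA cells followed by purification of the dendritic cells. B16 is a mouse melanoma line, here carrying ovalbumin. The 4 groups held 2 libraries each, named replicate 1 and replicate 2. The culture protocol is worded the same for every sample, so the groups rest on the condition and genotype labels. Ages and the number of mice are not given in the labels used here. The labels do not tell whether the replicates are separate cultures, and the p-values therefore cover the spread between these libraries, which may be technical.

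Melanocytes make melanin in melanosomes, organelles related to lysosomes. PMEL forms the fibrils on which melanin is laid down. TYRP1 and DCT belong to the tyrosinase family and act in the synthesis of eumelanin, with DCT working as dopachrome tautomerase. SLC45A2 is a transporter of the melanosome membrane whose loss lightens pigmentation. Expression of these genes in pigment cells depends on the transcription factor MITF, which binds E-box motifs, among them the M-box. B16 cells are pigmented and make these transcripts, whereas dendritic cells are not known for melanin synthesis.

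The M-box core is shown for the members whose promoters could be read, since it is a motif that MITF is known to bind. RefSeq promoter windows (GRCm38.p6, 250 bases before to 50 bases after the start) were at hand for Tyrp1 and Dct. The letters TCATGTG were searched on both strands, where the other strand reads CACATGA, and are set in capitals with the surrounding bases in lower case.
Tyrp1, chr4:80834154-80834183, plus strand: gtggggagggagTCATGTGctgcctagtag
Dct, chr14:118052380-118052409, minus strand: gtgcacttagggTCATGTGctaacaaagag
Dct, chr14:118052461-118052490, minus strand: gcttggctgggaCACATGAgcccaataaag
The match in Tyrp1 began 47 bases before the start, and those in Dct 151 and 232 bases before it. Of the 32851 promoter windows of the RefSeq table, 3.77% held the motif on either strand. A match describes these letters and is no evidence of binding.

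All 4 pigment-cell genes were higher in every library with lysate than in any library without it. Values are log2 levels on the regularized logarithm scale of the authors, which shrinks the changes of weakly covered genes. Because the table holds no counts, the depth of each library is unknown, and no length-scaled level can be given for comparing 1 gene with another. Ranks and positions against a library's median, where given, are on the deposited scale and are not corrected for gene length. Over all genes 11.1% separated in this way with lysate higher.

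Dct (Entrez 13190) lay at a log2 level of 4.75 in both wild-type libraries alone and at 5.80 and 5.95 in those with lysate. In the ythdf1-/- labelled libraries it lay at 4.87 and 4.84 alone and at 6.20 and 6.13 with lysate. The 2 wild-type libraries alone differed by 0.00011 on this scale, far less than the median gap of 0.089 between the same libraries over 1837 genes with a mean level under 6. The spread of this group is therefore no measure of the spread between cultures.

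Tyrp1 (Entrez 22178) behaved alike, with a log2 level of 4.75 in both wild-type libraries alone and 5.86 and 5.71 with lysate. The ythdf1-/- labelled libraries held 4.92 and 4.91 alone and 6.25 and 6.08 with lysate. Here too the wild-type libraries alone were tied, 1e-04 apart.

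Pmel (Entrez 20431) stood at a log2 level of 5.50 and 5.48 in wild type alone and at 6.06 and 6.35 with lysate. It stood at 5.44 in both ythdf1-/- labelled libraries alone and at 6.38 and 6.25 with lysate. The wild-type libraries with lysate were 0.29 apart, the widest gap within any group among the 4 genes. In the GRCm38 annotation Pmel overlaps Cdk2 on the opposite strand, and the sources used here do not state whether counting used strand. Cdk2, a cell cycle kinase, differed with lysate by -0.16 ± 0.077 in wild type (adjusted p = 0.151 by limma), by -0.19 ± 0.077 in ythdf1-/- labelled cells (adjusted p = 0.119) and by -0.18 ± 0.055 averaged over genotypes (adjusted p = 0.0244). The part of Cdk2 reads in the values of Pmel was not tested.

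Slc45a2 (Entrez 22293) had a log2 level of 3.63 in both wild-type libraries alone, where it ranked at percentile 0.017 of all genes, and of 4.16 in both with lysate. In the ythdf1-/- labelled libraries it had 3.64 in both alone and 4.26 and 4.24 with lysate. It passed the filter of a group mean of at least 4 through its lysate groups, but that filter removed 1 gene of the table, and the result was the same without it.

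**Figure D1:**
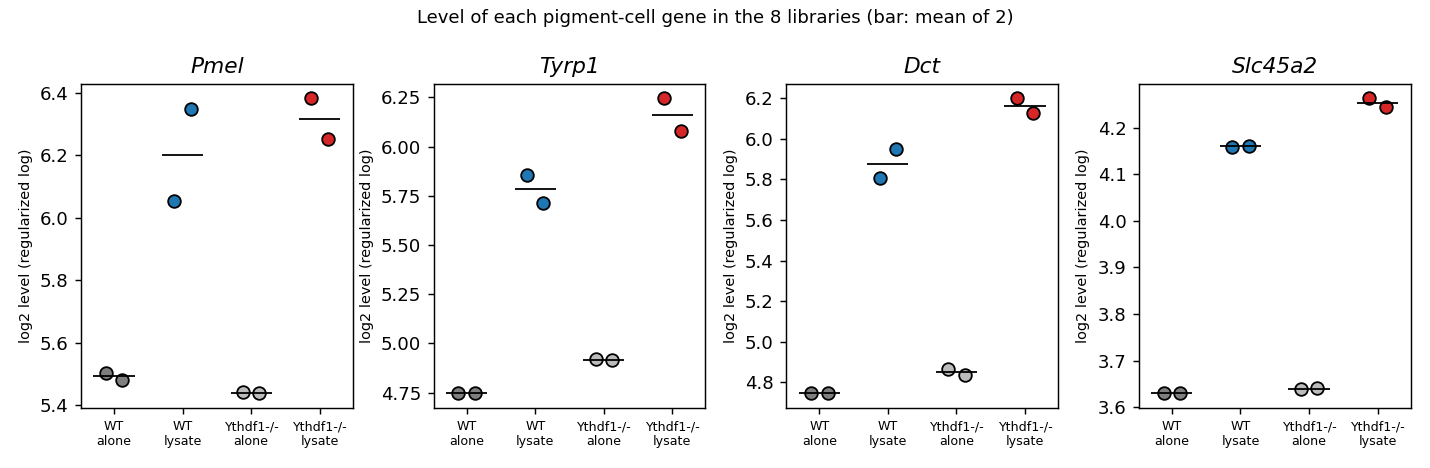
Log2 level (regularized logarithm, y axis, separate scale per gene) of Pmel, Tyrp1, Dct and Slc45a2 in the 8 libraries. Points are libraries, with replicate 1 on the left, and the bar is the mean of 2; for every gene the 4 lysate libraries lie above the 4 libraries alone.

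In wild type, all 4 genes were higher with lysate (limma, Benjamini-Hochberg adjustment over 11785 genes), where 10.2% of all genes rose. Dct rose by 1.13 ± 0.087 on the log2 scale (SE, adjusted p = 3.04e-06 by limma) and Tyrp1 by 1.04 ± 0.092 (adjusted p = 9.04e-06). Pmel rose by 0.71 ± 0.10 (adjusted p = 0.000488) and Slc45a2 by 0.53 ± 0.075 (adjusted p = 0.000411). Ordered by size, Dct held rank 17 among all rises, Tyrp1 rank 24, Pmel rank 78 and Slc45a2 rank 214. The median of the 4 differences was 0.87, against -0.01 over all genes.

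The ythdf1-/- labelled cells gave the same direction for each gene, and 8.28% of all genes rose there. Dct rose by 1.31 ± 0.087 (adjusted p = 2.09e-06 by limma), Tyrp1 by 1.24 ± 0.092 (3.08e-06), Pmel by 0.88 ± 0.10 (0.000147) and Slc45a2 by 0.61 ± 0.075 (0.000188). Dct stood at rank 6 and Tyrp1 at rank 7 of all rises in this genotype. Pmel stood at rank 24 and Slc45a2 at rank 99, and the median of the 4 was 1.06.

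Averaged over genotypes, the differences were 1.22 ± 0.062 for Dct, 1.14 ± 0.065 for Tyrp1, 0.79 ± 0.073 for Pmel and 0.57 ± 0.053 for Slc45a2. An exact two-sided permutation test on each gene, with 4 lysate libraries against 4 alone, gave p = 0.0286 for all 4, the smallest value this design allows. That test takes nothing from the spread of other genes. Its p-value follows from the complete separation stated above and adds nothing to it. The members were chosen with earlier results of these data known, so the value is a description. Between the highest library alone and the lowest with lysate there was a gap of 0.94 for Dct, 0.79 for Tyrp1, 0.55 for Pmel and 0.52 for Slc45a2. Melanoma RNA kept with the purified cells and RNA made by the dendritic cells cannot be told apart in these libraries, nor can more cells of a type and more RNA per cell.

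The order of the groups was the same for Dct, Tyrp1 and Slc45a2, from wild type alone through ythdf1-/- alone and wild type with lysate to ythdf1-/- with lysate. For Pmel the groups without lysate stood the other way round, and the lysate groups overlapped. With lysate, Tyrp1 was higher in the ythdf1-/- labelled cells by 0.38 ± 0.092 (adjusted p = 0.0177 by limma) and Dct by 0.29 ± 0.087 (adjusted p = 0.0468), where 7.44% of all genes were higher. The fit pools the spread of all 4 groups, among them the tied wild-type libraries alone (standard deviation 7.3e-05 for Tyrp1, 7.4e-05 for Dct). In the wild-type and ythdf1-/- lysate groups it was 0.10 and 0.12 for Tyrp1 and 0.10 and 0.051 for Dct. The standard errors may therefore be too small for this comparison. The differences of Pmel (0.12 ± 0.10, adjusted p = 0.49) and Slc45a2 (0.093 ± 0.075, adjusted p = 0.444) missed the threshold, although both ythdf1-/- labelled libraries exceeded both wild-type ones for Slc45a2, as for 29.6% of all genes. The call of Dct was lost without either wild-type library alone, without either wild-type library with lysate and without either ythdf1-/- labelled library with lysate, and that of Tyrp1 without wild-type lysate replicate 2 (adjusted p = 0.122) or ythdf1-/- lysate replicate 1 (adjusted p = 0.2). Dct also missed the threshold with a replicate block (adjusted p = 0.0729), with a filter at 6 (0.0649) and under quantile normalization (0.0554).

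Without lysate the genotypes did not differ by the test for any of the 4 genes (limma, 0 of 4 called at an adjusted p of 0.05 and 0 of 4 at an unadjusted p of 0.05, against 16.2% of all genes called in either direction). Even so, both ythdf1-/- labelled libraries alone lay above the tied wild-type libraries for Tyrp1 (difference 0.17 ± 0.092, adjusted p = 0.247), Dct (0.10 ± 0.087, adjusted p = 0.485) and Slc45a2 (0.0094 ± 0.075, adjusted p = 0.954). Over all genes 26.4% separated in that direction.

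The lysate effect was larger in the ythdf1-/- labelled cells for each gene, but no difference of the effects passed the test. It was 0.21 ± 0.13 for Tyrp1 (adjusted p = 0.731 by limma), 0.18 ± 0.12 for Dct (adjusted p = 0.741), 0.17 ± 0.15 for Pmel (adjusted p = 0.796) and 0.084 ± 0.11 for Slc45a2 (adjusted p = 0.874). In all, 0.11% of genes had a difference of effects past the threshold. For Slc45a2 the sign turned under quantile normalization (-0.054).

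**Figure D2:**
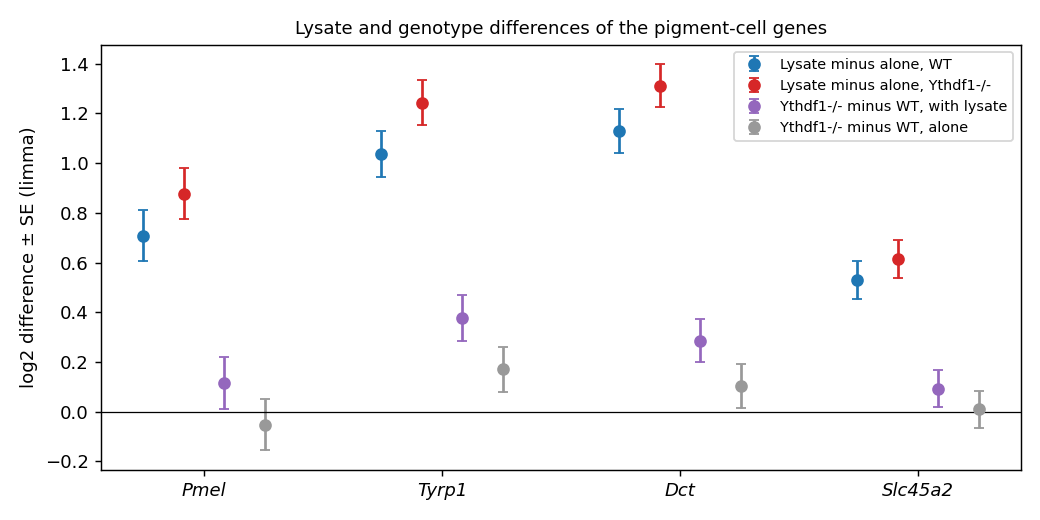
Log2 differences and their limma standard errors (y axis) for each gene, by comparison (2 libraries per group). The lysate differences run from 0.53 for Slc45a2 in wild type to 1.31 for Dct in ythdf1-/- labelled cells, while the genotype differences run from -0.052 to 0.38.

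Within the lysate groups the 4 genes did not all move together from library to library. In wild type, replicate 2 was above replicate 1 for Pmel by 0.29, for Dct by 0.15 and for Slc45a2 by 0.0016, while for Tyrp1 it was lower (-0.14). In ythdf1-/- labelled cells replicate 2 was the lower one for every gene, by -0.17 for Tyrp1, -0.13 for Pmel, -0.072 for Dct and -0.019 for Slc45a2. The mean log2 level over the 4 genes was 5.47 and 5.54 in the wild-type lysate libraries and 5.77 and 5.68 in the ythdf1-/- labelled ones, against 4.65 to 4.72 in the libraries alone. Across the 8 libraries each gene had a Pearson correlation of 0.974 to 0.999 with the mean of the other 3, a description that rests on the gap between libraries with and without lysate.

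Set beside other genes that were low without lysate, the pigment-cell genes stood near the top. Of 1842 genes with a mean log2 level under 6 in the libraries alone, 207 rose with lysate (11.2%), and 21 had a difference of at least 0.5 while 3 had a fall of that size. Dct ranked 2, Tyrp1 ranked 3, Pmel ranked 4 and Slc45a2 ranked 8 among these 1842 genes by the averaged difference. The others among the first 10 were Dio2 (1.49), an enzyme that activates thyroid hormone, Sel1l3 (0.79), Cd109 (0.78), a surface protein that binds TGF-beta, Cdca7l (0.58), Prag1 (0.57) and Prickle2 (0.57), a planar cell polarity protein. Ranks 11 to 14 were held by Enpp1 (0.57), Wnk2 (0.57), Sgsm1 (0.57) and Fabp7 (0.57), the last a fatty acid binding protein of glia and neural crest derivatives. Mcoln3, Erbb3 and Rab38, further pigment-cell genes described below, were also under 6 alone and were not among the first 10. The level limit and these names were chosen after the values were seen. The 4 members were chosen with earlier results of these data known, so their ranks are a description and no test.

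**Figure D3:**
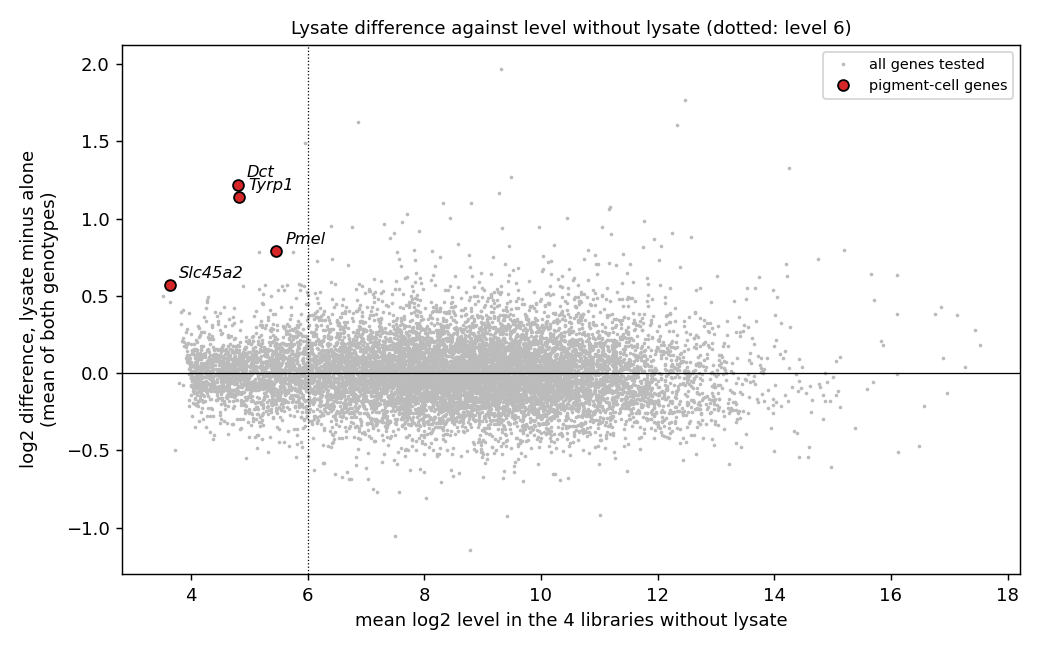
Lysate difference averaged over genotypes (log2, y axis) against the mean log2 level in the 4 libraries without lysate (x axis), for 11785 genes. The 4 pigment-cell genes (red) lie left of the dotted line at 6, with differences of 0.57 to 1.22.

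No gene was tied within 0.01 over all 4 libraries alone and at least 0.5 higher in every lysate library, and none showed the mirror pattern. The 4 pigment-cell genes missed that tolerance, with ranges over the libraries alone of 0.011 for Slc45a2, 0.065 for Pmel, 0.12 for Dct and 0.18 for Tyrp1. In wild type taken alone, a condition chosen after the values were seen, 119 genes were tied within 0.001 without lysate and 4 of these were at least 0.5 higher in both lysate libraries. Those were Dct, Tyrp1, Slc45a2 and Plau, the last at a mean log2 level of 9.52 alone, and 1 gene showed the mirror pattern.

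The genes whose profile was most like the mean of the 4 over the 8 libraries were Trpm6 (Pearson r 0.988), a magnesium channel, Rnf24 (0.987), Mdm2 (0.987), the ubiquitin ligase of p53, Sgsm1 (0.986), Zranb3 (0.984), Crispld2 (0.984), Hyal1 (0.981), a lysosomal hyaluronidase, and Rab3gap2 (0.98). Of 11356 genes compared, 79 had a correlation over 0.95. The measure takes no account of level. By Spearman correlation 1 of these 8 remained among the first 8.

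Of 29 further genes of the pigment-cell programme, 7 were measured. The other 22, among them Tyr, Mlana, Sox10 and Oca2, were not found by symbol among the 11786 genes. Averaged over genotypes, 3 of the 7 rose with lysate and 1 fell (limma), against 16.5% of all genes rising and 18.2% falling, with a median of 0.17 against -0.0092 over all genes. Met, the receptor of hepatocyte growth factor, rose by 0.68 ± 0.063 (adjusted p = 6.44e-06). Mitf, the transcription factor named above, rose by 0.41 ± 0.061 (adjusted p = 0.000229), and Mcoln3, an endolysosomal cation channel, by 0.38 ± 0.065 (adjusted p = 0.000642). Kit, the receptor of stem cell factor, fell by 0.36 on the log2 scale (adjusted p = 0.000187).

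Mitf had a log2 level of 9.97 and 9.84 in wild type alone and of 10.4 and 10.2 with lysate, and of 9.60 and 9.78 in ythdf1-/- labelled cells alone and 10.1 and 10.2 with lysate. It was above the library medians of the deposited scale, near 8.54, in the libraries alone, as were Met, Kit and Fmn1. Erbb3, a neuregulin receptor of neural crest derivatives, lay at 4.74 and 4.73 in wild type alone and at 5.06 and 4.85 with lysate, and its averaged difference of 0.17 ± 0.064 missed the threshold (adjusted p = 0.0503). Rab38, which sorts TYRP1 to melanosomes, differed by 0.069 ± 0.058 (adjusted p = 0.385).

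**Figure D4:**
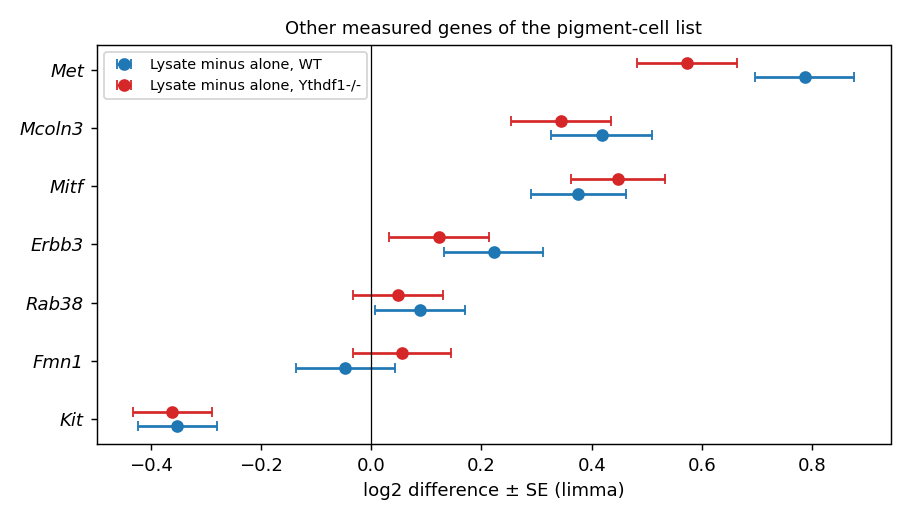
Log2 differences and their limma standard errors (x axis) for the 7 other measured genes of the pigment-cell list, lysate minus alone, in wild type (blue) and ythdf1-/- labelled cells (red). Met lies highest and Kit lowest, at -0.35 in wild type and -0.36 in ythdf1-/- labelled cells.

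Genes of melanosome formation and transport moved both ways. Of 36 listed genes 35 were measured, and averaged over genotypes 9 rose and 7 fell with a median of -0.0042. Over all genes 16.5% rose and 18.2% fell. Gpnmb, a relative of Pmel that macrophages and dendritic cells also make, rose by 0.64 ± 0.047 (adjusted p = 7.26e-07 by limma) from log2 levels of 16.0 to 16.2 in the libraries alone. Myo5a, the myosin that carries melanosomes, rose by 0.58 ± 0.050 and Atp7a, the copper pump that supplies tyrosinase, by 0.38 ± 0.069. Mreg, a regulator of organelle transport, fell by 0.33 on the same scale.

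Genes of the neural crest and of adherent tumour cells gave no common direction, with 3 of 15 measured genes higher and 4 lower averaged over genotypes (30 listed). Over all genes 16.5% rose and 18.2% fell in that comparison. The number lower was 2 with a filter at 6, which leaves fewer genes. Cav1, the caveola protein, rose by 0.69 ± 0.060 and Fstl1, a secreted glycoprotein, by 0.54 ± 0.053, whereas Cdh2, N-cadherin, fell by 0.54 and Ccn2 by 0.38. In the same averaged comparison 0 of 7 measured stroma genes rose and 3 fell, and 1 fell with the filter at 6. Of 12 genes on a list named for keratinocytes only Epcam was measured, and 1 gene does not mark a cell type. Epcam differed by 0.23 ± 0.069 (adjusted p = 0.0199 by limma). That call was lost without wild-type alone replicate 2, wild-type lysate replicate 2 or ythdf1-/- lysate replicate 2, and at a threshold of 0.01.

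Markers of the labelled cell type were present in every group. Of 23 dendritic cell genes 22 were measured, with a mean log2 level of 11.98 to 12.33 over the 8 libraries. Averaged over genotypes 11 of the 22 fell with lysate and 2 rose, against 18.2% of all genes falling and 16.5% rising. The median of the 22 differences was -0.149, and more genes fell than rose. Ciita stood lower with lysate in wild type (-0.91) and in ythdf1-/- labelled cells (-0.48). So did H2-Eb1 (-0.60 and -0.61), H2-Ab1 (-0.54 and -0.54) and H2-Aa (-0.36 and -0.36). Itgam stood higher, at log2 levels of 13.4 in both wild-type libraries alone and 13.6 and 13.5 with lysate. In ythdf1-/- labelled cells it had 13.0 in both alone and 13.3 and 13.4 with lysate. In the same averaged comparison 5 of 13 macrophage and monocyte genes rose and 4 fell, and of 10 neutrophil genes 1 rose and 3 fell. Neutrophil genes were lower in ythdf1-/- labelled libraries than in wild type under either treatment. With lysate 10 of 10 were lower, with a median of -1.29, where 5.45% of all genes were lower. Without lysate 9 of 10 were lower, with a median of -1.41, where 16.2% of all genes were called in either direction. Tyrp1 and Dct were called higher in the comparison with lysate and not in that without, where they differed by 0.17 and 0.10. Their lysate effects did not differ between genotypes by the test (limma adjusted p = 0.731 for Tyrp1 and 0.741 for Dct). The part of neutrophil genes in the genotype differences of Tyrp1 and Dct was not tested.

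Receptors and bridging proteins for dead cells rose in 6 of 14 measured cases and fell in 1 averaged over genotypes. Over all genes 16.5% rose and 18.2% fell in that comparison. Cd36 rose by 1.60 ± 0.068, Msr1, a scavenger receptor, by 0.83 ± 0.053, Itgav by 0.55 ± 0.073 and Lrp1 by 0.33 ± 0.051.

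The transcript of Ythdf1 itself did not differ by the test between genotype labels, with a difference of -0.030 ± 0.081 in cells alone (adjusted p = 0.85 by limma) and of -0.16 ± 0.081 with lysate (limma adjusted p = 0.202). The labels do not describe the altered allele, so this value does not check the genotype, and each genotype direction above rests on the labels. Medians of the libraries lay between 8.53 and 8.55.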

How the data were processed

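Per the labels' protocols, libraries were stranded mRNA libraries. The 8 RNA-seq libraries were used, and the 4 immunoprecipitation samples were not analysed here. The deposited log2 values were read as the regularized logarithm of DESeq2 on counts per Entrez gene, made by the authors; the table's name is the ground for this reading, with the submitters' processing notes, where the tools are STAR, deepTools, and DESeq2 without versions and the build is mm9. The sources used here do not give the counting tool, annotation or gene filter.

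Symbols came from RefSeq GRCm38.p6 (11744 matched, 42 did not). Genes with a largest group mean of at least 4 were tested, 11785 of 11786. limma 3.58.1 in R 4.3.3 (group means of all 8 libraries, eBayes with a mean-variance trend, 4 residual and 9.33 prior degrees of freedom) was run two-sided with Benjamini-Hochberg adjustment at 0.05 over all genes, after a test on simulated data. Figures were drawn with Python 3.11.15. Named genes were the 4 members, up to 4 genes per list with the smallest p in the averaged lysate comparison, the 8 genes most correlated with the members (leaving out predicted genes), and tied genes. Cdk2, Erbb3, Rab38, Fmn1, Plau, Fabp7, Itgam, H2-Eb1, H2-Ab1, H2-Aa and the low genes listed were chosen after their values were seen. Members and lists were chosen with earlier results of these data known.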

Additional observations from a re-analysis of the deposited data

How the results depend on the processing

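Of 421 recomputed log2 differences of the 4 genes over 6 comparisons, 408 kept their side of the threshold, 13 lost the call and 0 reversed one. Among those 408 the sign turned in 2 that were not called, Slc45a2 for the difference of effects under quantile normalization (-0.054) and Pmel between genotypes with lysate without wild-type lysate replicate 1 (-0.030). All lysate calls in wild type and in ythdf1-/- labelled cells held wherever the gene was tested; a filter at 6 removed Slc45a2, which left 3 genes. Leaving out each library, the wild-type difference ran from 1.06 to 1.20 for Dct and from 0.56 to 0.85 for Pmel. A lone library left in a group takes its spread from the others.

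The number of the 4 genes higher in ythdf1-/- labelled cells with lysate was 1 with the replicate block, with the filter at 6 and under quantile normalization, 0 at a threshold of 0.01, and 0 to 2 without single libraries. Dct was 0.29 with the block (adjusted p = 0.0729) and with the filter at 6, and 0.28 under quantile normalization; at 0.01 Tyrp1 (0.38) and Dct (0.29) missed the threshold. Without single libraries Dct ran from 0.21 to 0.36 and Tyrp1 from 0.29 to 0.46; Pmel, not called, ran up to 0.26.

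Counts over all genes moved by over 1.5 times too. In wild type 2534 were called with lysate, 1031 without wild-type alone replicate 2, 1104 without wild-type lysate replicate 1 and 1142 at 0.01. In ythdf1-/- labelled cells 1792 were called, 564 to 2275 without single libraries and 759 at 0.01; averaged, 4090 and 2365 at 0.01. Between genotypes with lysate 1519 were called, 193 to 2057 without single libraries, 526 at 0.01 and 2427 at 0.10. Without lysate 1915 were called, 1174 to 1865 without single libraries, 1196 from those groups alone and 956 at 0.01. For the difference of effects 13 were called, 1 with the replicate block, 8 with the filter at 6, 1 without the trend, 0 to 32 without single libraries, 1 at 0.01 and 21 at 0.10. The cause was not tested.

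Replicate numbers do not pair the samples by the labels. Differences between replicates correlated at 0.259 between the wild-type groups and at -0.0483 between the ythdf1-/- labelled groups over genes. Between the groups without lysate they correlated at -0.611. A block with crossed numbers, chosen after the data were seen, was run only for the genotype comparison without lysate. There 0 of the 4 genes were called, as in the main fit. Widening the tolerance for ties to 0.2, also chosen then, gave 28 genes and 1 mirror gene. Of 939 recomputed values of named list genes 899 kept their call, 32 lost it, 8 gained it and 0 reversed.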
